A study of Harpegnathos saltator with 75 samples.

Results

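By group means at day 0, the genes described here carried RNA in both the brain and the ovary of the jumping ant Harpegnathos saltator. They carried little in the fat body. They were chosen by a rule on read counts scaled to a common library size (CPM, with TMM scaling, which corrects for a few genes taking many reads). An offset of 5 CPM was added to each group mean before any ratio was taken. At day 0 the fat body had to be the lowest of the 3 tissues, the second tissue had to stand at least 2 above it on the log2 scale, and the highest tissue had to stand less than 3 above the second. In each tissue at day 10 the log2 ratio of gamergates to workers had to be smaller than 0.8 in size. The rule found 46 of the 20659 gene models in the deposited table, fewer than its maximum of 150. Of these, 27 were highest in the brain at day 0 (brain-led) and 19 in the ovary (ovary-led). The day 0 levels and the day 10 caste ratios therefore chose the genes and are given as a description only, without tests.

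Polyadenylated RNA was sequenced from ovaries, fat bodies and non-visual brains, in 75 libraries. The ants were workers at day 0, counted from the start of a dueling tournament, and at day 3 and day 10 they were either prospective workers or prospective gamergates (workers that mate and lay eggs). Each of the 15 combinations of day, caste and tissue had 5 libraries. No genotype, drug or age is named in the labels, and nothing there says that the replicates of a group were separate ants, so p-values measure only the spread between these libraries, which may be technical.

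The insect fat body stores nutrients, runs much of the intermediary metabolism and makes the yolk proteins that the ovary takes up. The ovary holds germline cells, which load the growing egg with RNA and protein, and the follicle cells around them. The brain holds neurons and glia. In Drosophila, some RNA-binding proteins that control translation in the egg, pumilio among them, also act in neurons. The table gives identifiers that could be paired with no gene name, so no role is given to any of the 46 genes and levels are compared between samples of a gene, never between genes.

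A library held between 488892 and 4677916 reads in genes (median 1380887). Each tissue was marked by the genes that the same day 0 levels single out as specific to it (at least 3 on the log2 scale above both other tissues, with the 5 CPM offset, and at least 10 CPM). The 375 brain-specific genes took 9.49% to 16.9% of the reads of a brain library, the 339 fat-body-specific genes 36.9% to 70.1% of those of a fat body library, and the 77 ovary-specific genes 1.96% to 6.89% of those of an ovary library. A few libraries stood apart. In the day 10 gamergate brain with number 5 the brain-specific genes took 9.49% against 14.6% to 16.0% in the other 4, and the fat-body-specific genes 7.10% against 4.25% to 5.35%. In the day 0 brain with number 5, 67.7% of the reads fell outside annotated genes, against 57.1% to 58.0% in the other 4. Both are named below beside some of the values they touch.

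Taken as a group, the 46 genes took a far smaller share of the reads of the fat body than of those of brain and ovary. At day 0 they took 0.688% to 0.838% of a brain library's reads (median 0.817%), 0.619% to 0.799% of an ovary library's (median 0.718%) and 0.00769% to 0.0281% of a fat body library's (median 0.0152%). At day 3, in libraries that the rule did not use, the medians were 0.938% in the brain, 0.757% in the ovary and 0.0221% in the fat body. The highest fat body library of day 3 reached 0.0442% and the lowest ovary library stood at 0.566%, so the tissues did not overlap. At day 10 the medians were 0.932%, 0.617% and 0.0230% in the same order. The gamergate ovaries held 0.656% to 0.802% at day 3 and 0.521% to 0.608% at day 10, without overlap, and the worker ovaries 0.566% to 0.784% and 0.626% to 0.772%, with overlap. These shares carry no TMM scaling. With it, the 46 genes summed to 4348 to 5715 CPM in the day 3 gamergate ovaries. In the day 10 gamergate ovaries they summed to 3916 to 4765 CPM, so the days overlapped. The brain with the lowest share, 0.539%, was the day 10 gamergate library with number 5, and the other 4 brains of that group lay at 0.925% to 0.975%.

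**Figure D1:**
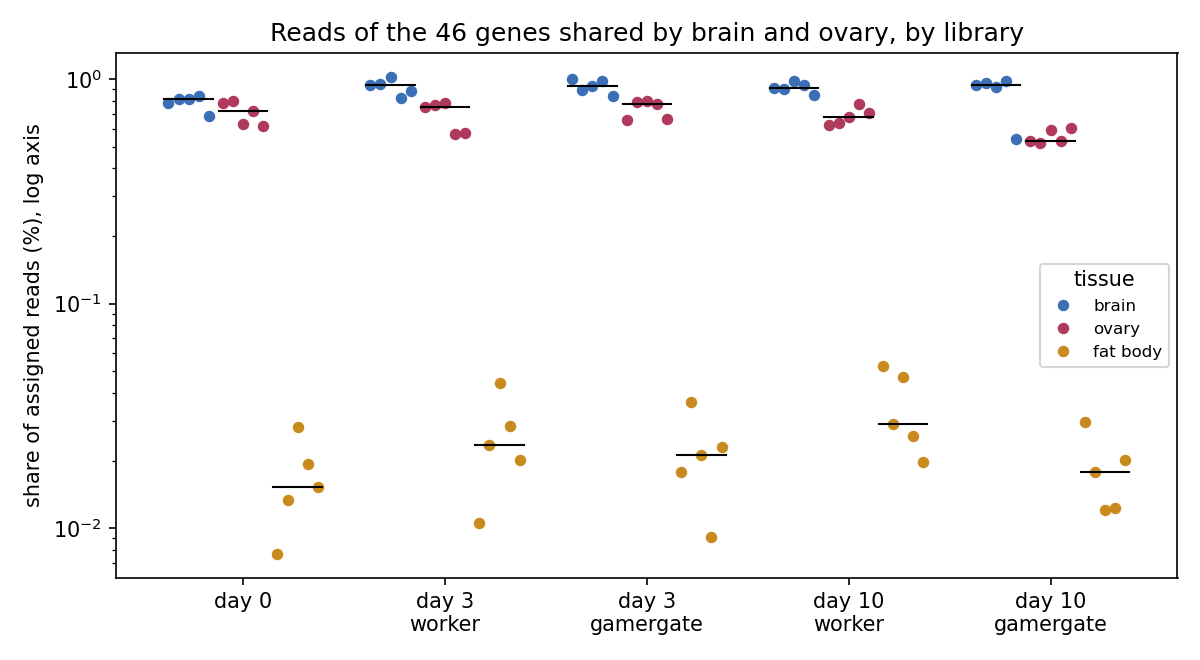
Share of assigned reads taken by the 46 genes (percent, log axis) in each of the 75 libraries, by day and caste, with 5 libraries per tissue and group; the bar is the group's median. Brain and ovary libraries lie between 0.521% and 1.02%, fat body libraries between 0.00769% and 0.0530%, and 1 day 10 gamergate brain sits low at 0.539%.

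The genes nearest the limits of the rule show how gradual they were. HSALG012241.2 was the last gene inside the limit on the second tissue, at 2.03 above the fat body, and HSALG005105.2 the first outside it, at 1.99. On the lead of the highest tissue, HSALG000626.2 was inside at 2.82 and HSALG002038.2 outside at 3.03. On the caste ratio, HSALG028988.1 was inside at 0.78 and HSALG015580.1 outside at 0.84. The caste limit removed 35 of the 81 genes that met the tissue criteria: 26 of the 35 were at or past it in the ovary, 14 in the fat body and 1 in the brain. Among the 46 genes that remained, the day 10 log2 ratio of gamergates to workers ran from -0.42 to 0.48 in the brain, from -0.73 to 0.76 in the fat body and from -0.78 to 0.65 in the ovary.

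At day 0 the median over the 46 genes was 104 CPM in the brain, 63.6 CPM in the ovary and 2.88 CPM in the fat body. Among the 27 brain-led genes the medians were 150.2 CPM in the brain and 50.4 CPM in the ovary, and among the 19 ovary-led genes 53.2 CPM in the brain and 114 CPM in the ovary. The gene whose second tissue stood farthest above the fat body, by 4.21, was HSALG013092.1. Its 5 day 0 ovary libraries held 297, 291, 282, 328 and 242 CPM, its brain libraries 123, 133, 123, 131 and 104 CPM, and its fat body libraries 0, 2.22, 3.38, 3.11 and 0.862 CPM. Every ovary library was above every brain library, and the fat body libraries rested on 0 to 4 reads each.

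HSALG012110.2 followed, at 3.63, and was brain-led. Its day 0 brain libraries held 497, 436, 448, 396 and 137 CPM, its ovary libraries 220, 202, 171, 203 and 122 CPM, and its fat body libraries 0, 4.44, 32.7, 6.99 and 6.90 CPM. The low brain value came from library number 5 and lay within the range of the ovary libraries. HSALG029357.1, the third at 3.52, had no read in any of the 5 day 0 fat body libraries. Its ovary libraries held 77.8, 90.3, 56.8, 74.3 and 47.8 CPM and its brain libraries 54.7, 61.4, 65.1, 68.5 and 12.6 CPM, again with number 5 the lowest brain.

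The split between brain and ovary differed widely from gene to gene. By group means with the 5 CPM offset, HSALG000626.2 leaned most to the brain, at a log2 ratio to the ovary of 2.82. HSALG010015.2 and HSALG009981.2 were close, at 2.77 and 2.75. HSALG000626.2 had day 0 brain libraries from 369 to 747 CPM (median 396) and ovary libraries from 54.1 to 74.7 CPM (median 56.8). The 747 CPM came from brain number 5, and the others held 369 to 422 CPM. HSALG009635.2 leaned most to the ovary, with 126 to 202 CPM there (median 167) and 1.05 to 29.3 CPM in the brain (median 26.1). Its 1.05 CPM came from brain number 5, and the others held 16.3 to 29.3 CPM. HSALG008195.1 had the most even split, with 87.4 to 114 CPM in the ovary (median 100.2) and 54.0 to 122 CPM in the brain (median 109). HSALG012703.2, which took the most reads of the 46 over all libraries, was also even at day 0, with a median of 313 CPM in the brain and 299 CPM in the ovary against 33.3 CPM in the fat body.

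Whether the tissue pattern held in other libraries was asked at day 3, in 30 libraries fitted together with castes averaged (edgeR quasi-likelihood test, Benjamini-Hochberg adjusted p below 0.05 over the 10537 genes tested). All 46 genes were tested. Against the fat body, 46 of 46 were higher in the brain, where 45.4% of all genes tested were higher and 33.7% lower. Their median log2 difference was 4.73, beside 0.24 over all genes tested, and the smallest was 2.39 (HSALG002567.1). In 45 of the 46 no brain library overlapped a fat body library, which held for 41.8% of all genes tested. Against the fat body, 44 of 46 were higher in the ovary and 1 was lower, where 38.4% of all genes tested were higher and 34% lower. The median log2 difference was 3.95, beside 0.09 over all genes, and 41 of 46 had no overlap, beside 33.5% of all genes tested. The fat body was below both other tissues for 44 of the 46 genes (95.7%), beside 22.1% of all genes tested. Bulk libraries cannot tell fewer cells of a type from less RNA per cell.

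**Figure D2:**
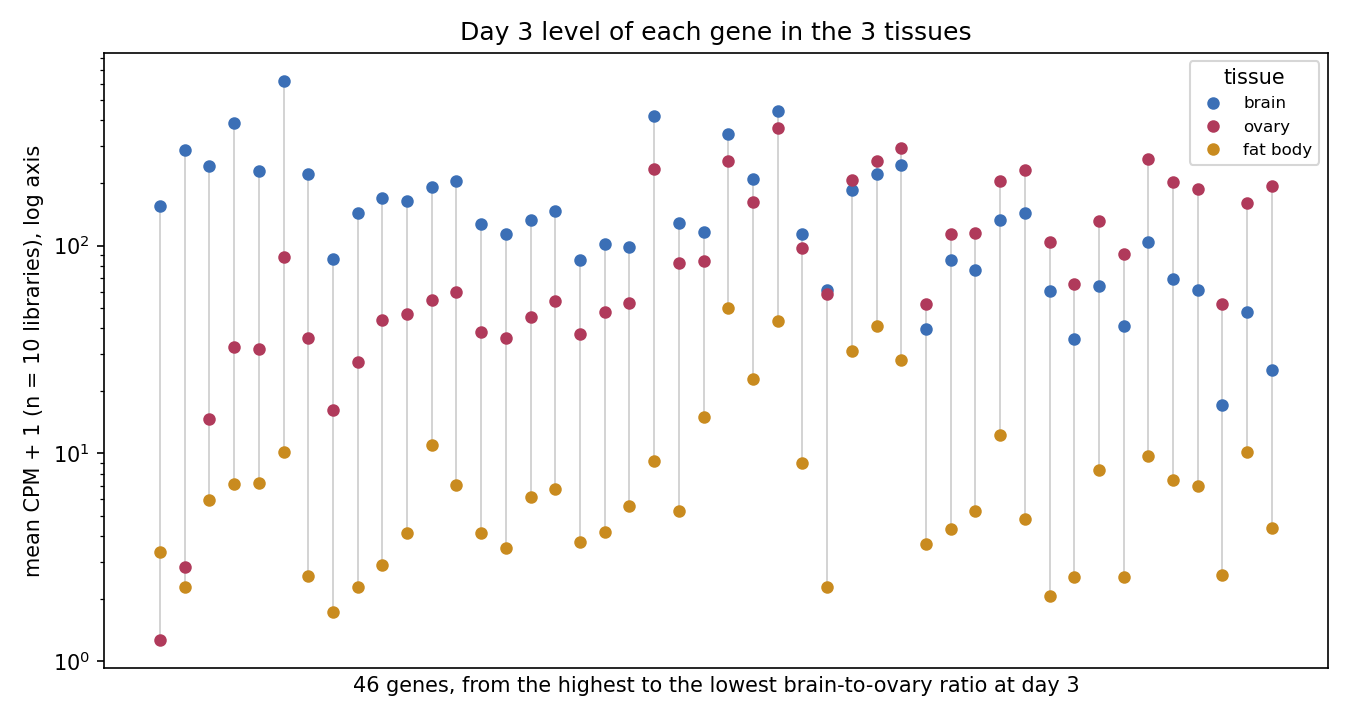
Mean CPM plus 1 (log axis) of each of the 46 genes at day 3 in brain, ovary and fat body, over 10 libraries per tissue (both castes), ordered by the brain-to-ovary ratio. The fat body is the lowest tissue for 45 of the 46 genes; the exception, HSALG003019.2, is at the far left, with the ovary lowest.

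The widest distances from the fat body belonged to genes that the fat body libraries barely held. HSALG027921.1 had 173 to 456 CPM in the 10 day 3 brains (median 300.5) and 0 to 3.06 CPM in the fat bodies (median 1.58), a log2 difference of 7.77 (SE 0.28, edgeR adjusted p = 1.26e-20). HSALG000381.2 had 61.1 to 312 CPM in the brains (median 238) and 0 to 7.38 CPM in the fat bodies (median 0), a log2 difference of 7.38 (SE 0.42, edgeR adjusted p = 2.24e-15). In neither gene did the 2 tissues overlap.

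Between ovary and fat body, HSALG029357.1 differed most, with 73.3 to 126 CPM in the day 3 ovaries (median 106) and 0 to 4.43 CPM in the fat bodies, where 6 of 10 libraries had no read. Its log2 difference was 6.43 (SE 0.35, edgeR adjusted p = 3.26e-16). HSALG005957.1 had 59.4 to 118 CPM in the ovaries (median 86.3) and 0 to 7.94 CPM in the fat bodies, with a log2 difference of 6.05 (SE 0.38, edgeR adjusted p = 1.16e-14). Its ovary and fat body libraries were likewise apart.

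The fat body level can be set beside that of genes specific to another tissue, whose order the limits already fix: specific genes had to stand at least 3 above the fat body on the log2 scale, and the 46 genes at least 2. At day 3 the median fat body mean of the 46 genes was 3.93% of the brain mean and 6.77% of the ovary mean. The brain-specific genes stood at 1.39% of their brain level in the fat body, and the ovary-specific genes at 1.93% of their ovary level. In mean CPM over the 10 day 3 fat body libraries, 24 of the 46 genes were below 5 CPM and 8 were at 10 CPM or above. The fat body libraries with the 2 highest shares for the 46 genes at day 3, worker number 3 (0.0442%) and gamergate number 2 (0.0366%), also had the 2 highest shares for the brain-specific genes (0.461% and 0.387%), and the other 8 lay at 0.0887% to 0.231% for those. The part of RNA from other tissue in the fat body values was not tested.

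Brain and ovary were then set against each other at day 3. Of the 46 genes, 23 were higher in the brain, 14 higher in the ovary, and 9 did not pass the test, where 42.6% of all genes tested were higher in the brain and 37.7% higher in the ovary. The median log2 difference was 0.46, beside 0.09 over all genes, and 26 of 46 had no overlap between the tissues, beside 48.6% of all genes tested. The lead seen at day 0 was found again for most genes. Of the 27 brain-led genes, 22 were higher in the brain, 0 higher in the ovary and 5 not called. Of the 19 ovary-led genes, 14 were higher in the ovary, 4 were not called and 1, HSALG008195.1, was higher in the brain by 0.47 (SE 0.10, edgeR adjusted p = 1.03e-04). This was the gene with the most even split at day 0; at day 3 its brains held 95.1 to 136 CPM (median 115) and its ovaries 69.7 to 98.1 CPM (median 82.6), which just overlapped.

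By group means, the tissue that led at day 0 led at day 3 in 43 of 46 genes, and the tissue that led at day 3 led at day 10 in 46 of 46. For these counts and the calls by leading tissue above, no share of all genes keeping their lead is given. The counts cannot be read as particular to the 46 genes. With the 5 CPM offset, the log2 ratio of brain to ovary moved by a median of 0.25 in size from day 0 to day 3 and by more than 1 in 3 genes. From day 3 to day 10 it moved by a median of 0.19 and by more than 1 in none of the 46. The 3 genes that moved by more than 1 were HSALG027921.1, HSALG003019.2 and HSALG012241.2. The last of these had 241 to 1011 CPM in the day 0 ovaries (median 491) and 140.3 to 553 CPM in those of day 3 (median 242). Its day 3 brains and ovaries did not differ past the threshold (log2 -0.17, SE 0.23, edgeR adjusted p = 0.502).

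HSALG003019.2 and HSALG027921.1 had the largest lead of the brain at day 3. HSALG003019.2 had 127 to 179 CPM in the day 3 brains (median 156) and 0 to 1.09 CPM in the ovaries, where 6 of 10 libraries had no read, a log2 difference of 8.81 (SE 0.41, edgeR adjusted p = 1.71e-17). HSALG027921.1 had 0.991 to 2.59 CPM in the day 3 ovaries (median 1.87), 7.25 below the brain on the log2 scale (SE 0.23, edgeR adjusted p = 2.06e-21). These were also the 2 genes that were not higher in the ovary than in the fat body at day 3. For HSALG027921.1 that difference was 0.51 (SE 0.48, edgeR adjusted p = 0.345).

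HSALG003019.2 was lower in the ovary than in the fat body by a log2 of -2.60 (SE 0.79, edgeR adjusted p = 0.00439), on few reads. The day 3 ovaries held 4 reads in the gamergate group and 2 in the worker group, and the fat bodies 8 and 9 reads, of which 8 lay in worker fat body number 3 and 5 in gamergate fat body number 2, the 2 libraries with the most brain-specific reads. Without worker fat body number 3 the difference was not called.

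Both genes entered the list through few day 0 ovaries, HSALG003019.2 mainly through number 2. HSALG003019.2 had 11.2, 144, 1.58, 0.419 and 0.438 CPM in the 5 day 0 ovaries, and 0 to 1.55 CPM in the 20 ovaries of day 3 and day 10. HSALG027921.1 had 153, 244, 0.946, 47.8 and 0.876 CPM in the day 0 ovaries and 0 to 9.20 CPM in the later ones. In both genes ovary number 2 was the highest, and numbers 3 and 5 held at most 1.58 CPM. The day 0 brain libraries held 111 to 151 CPM of HSALG003019.2 and 163 to 339 CPM of HSALG027921.1. The 111 and the 339 CPM came from brain number 5, and the other brains held 163 to 224 CPM of HSALG027921.1. The brain-specific genes took 0.231% of the reads in ovary number 2 and 0.242% to 0.332% in the other 4 day 0 ovaries. The part of RNA from other tissue in these ovary values was not tested.

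**Figure D3:**
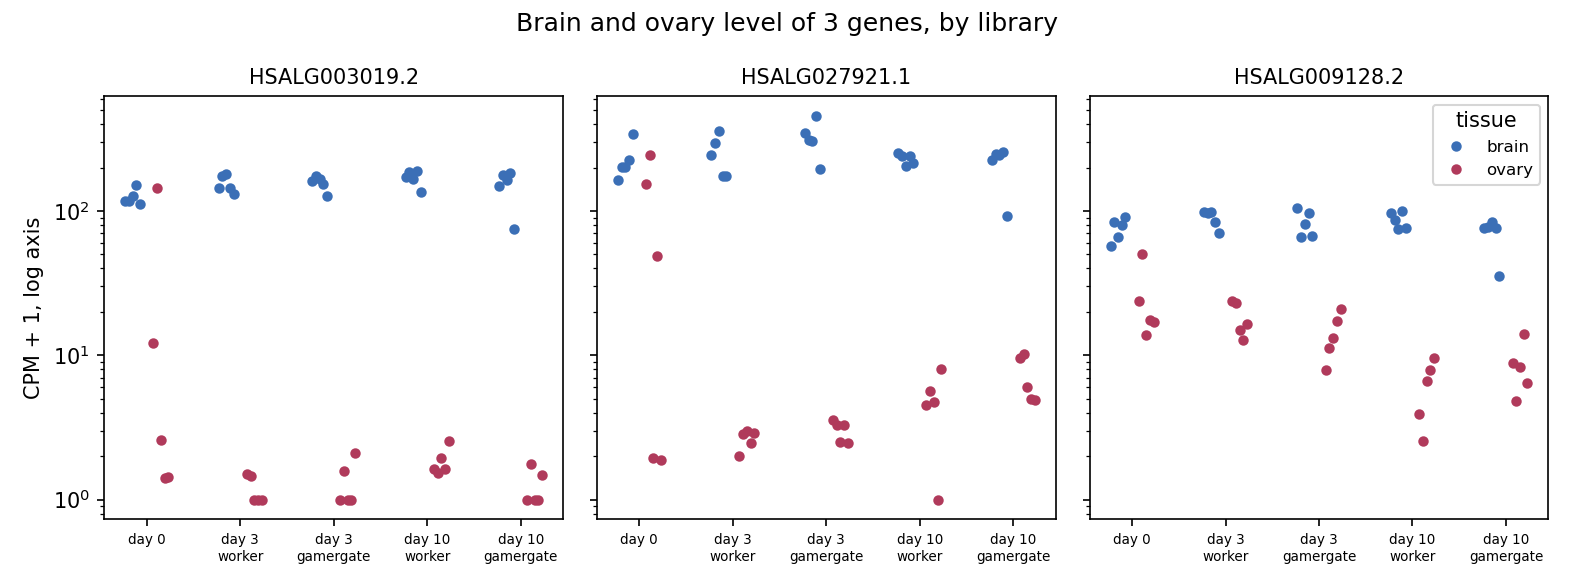
CPM plus 1 (log axis) of 3 genes in each brain and ovary library, by day and caste, with 5 libraries per group. HSALG003019.2 and HSALG027921.1 reach 144 and 244 CPM in day 0 ovary number 2 and stay at or below 1.55 and 9.20 CPM in every later ovary, while HSALG009128.2 is lower in the day 10 ovaries (median 6.24 CPM) than in the day 3 ovaries (median 14.7 CPM).

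At the other end, HSALG009635.2 had 127 to 234 CPM in the day 3 ovaries (median 188) and 12.8 to 34.7 CPM in the brains (median 24.6), a log2 difference of brain to ovary of -2.98 (SE 0.20, edgeR adjusted p = 1.44e-14). HSALG002567.1 had 133 to 175 CPM in the ovaries (median 166) and 36.9 to 55.5 CPM in the brains (median 48.6), a difference of -1.75 (SE 0.12, edgeR adjusted p = 1.99e-14). In both genes every ovary library was above every brain library. Their fat body medians at day 3 were 1.88 and 8.02 CPM.

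The scaling bears on the size of the distance to the fat body. When libraries were scaled by total reads alone, the median of all genes tested moved from 0.24 to 1.36 for brain over fat body and from 0.09 to 1.39 for ovary over fat body. Relative to that median the 46 genes stood 4.49 and 3.86 higher with TMM. With total reads the values relative to the median of all genes were 4.49 and 3.87. For brain over ovary the median of all genes was 0.09 with TMM, 0.21 with the size factors of DESeq2 and -0.11 with total reads, and the split of the 46 genes was 23 higher and 14 lower, 26 and 12, and 22 and 16.

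Gamergates and workers were compared at day 3, which the caste limit of the rule did not use. In the brain 0 of 46 genes were called by edgeR, 0 had an unadjusted p below 0.05, and DESeq2 called 0; of all genes tested 0% were called. The median log2 ratio of gamergate to worker was 0.01, beside 0.00 over all genes, and every value lay within 1 of 0, with a median SE of 0.20. In the fat body 15 of the 46 genes had enough reads to be tested. Of these 0 were called by edgeR or DESeq2, where 0% of all genes tested were higher and 0.0504% lower. An unadjusted p below 0.05 was found in 0, beside 508 of the 7941 genes tested. In the ovary 45 were tested and 0 called by either tool, beside 0% of all genes tested.

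The ovary values leaned to one side without passing the test. Of the 45 genes, 38 had a higher mean in gamergates, with a median log2 ratio of 0.16, beside -0.02 over all genes tested. The ovary-specific genes had a like median, 0.15, with 65 of 77 above 0, and the fat-body-specific genes lay the other way in these ovaries, with a median of -0.28 and 63 of 230 above 0; the part of tissue makeup in the caste values was not tested. Without each library of the 2 groups in turn the median of the 45 ran from 0.06 to 0.24. At an unadjusted p below 0.05 there were 3 of 45, beside 362 of the 9150 genes tested. The 3, named here after their values were seen, were HSALG004949.2 at 0.35, HSALG010945.2 at 0.33 and HSALG009038.2 at 0.31. Each had an edgeR adjusted p of 0.983. In HSALG004949.2 the gamergate ovaries held 65.4 to 77.4 CPM and the worker ovaries 46.2 to 62.4 CPM, without overlap, as in 0.35% of all genes tested. Worker and gamergate libraries of day 3 ran in different lanes, per the library names in the labels. With flow cell and lane as a term, which only the day 0 libraries tie to the castes, 0 of the genes were called in each tissue; the median log2 ratio was then 0.19 for ovaries, -0.24 for brains and -0.05 for fat bodies.

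**Figure D4:**
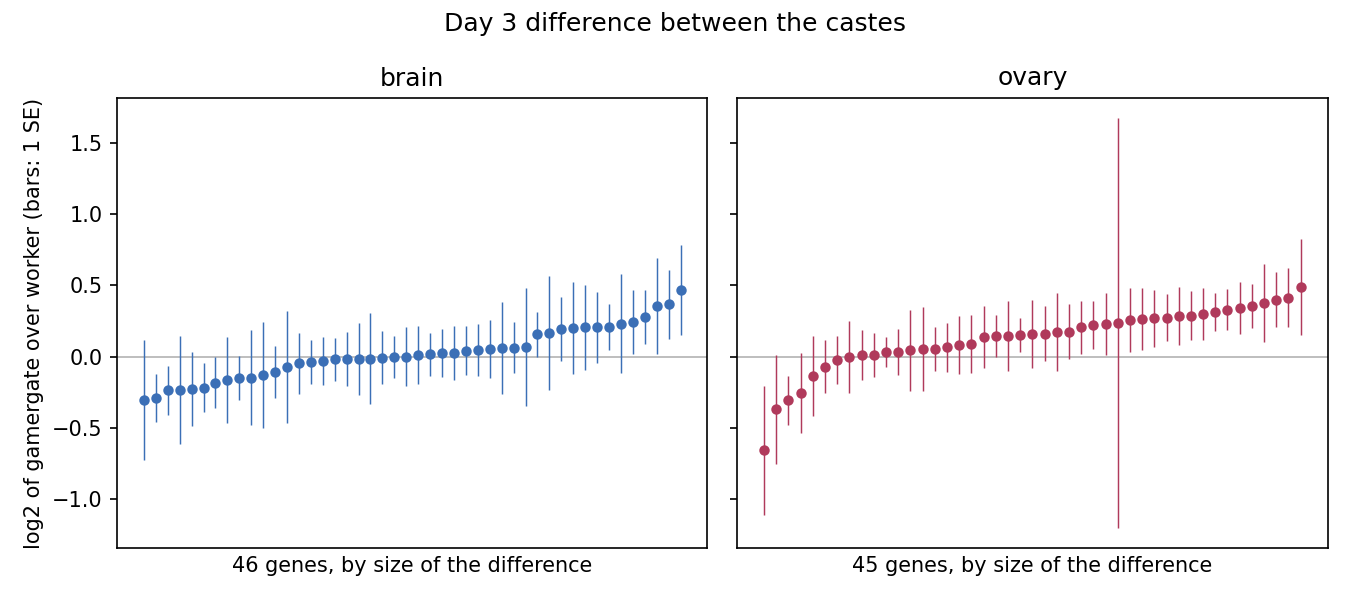
Log2 ratio of gamergate to worker at day 3 for the genes tested in brain (46) and ovary (45), ordered by size within each tissue; bars are 1 SE, 5 libraries per caste. Brain values centre on a median of 0.01 and ovary values on 0.16, and none passed the adjusted threshold.

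From day 3 to day 10 no change of the 46 genes passed the test in the brain. With castes averaged, 0 of 46 were called by edgeR or DESeq2, where 0.0101% of all genes tested were higher and 0.0405% lower. An unadjusted p below 0.05 was found in 0, beside 521 of the 9886 genes tested. The median log2 change was -0.01, beside 0.02 over all genes, and the values ran from -0.48 to 0.29, with a median SE of 0.15. Without the day 10 gamergate brain number 5 the median was 0.07 and the count of calls was 0 again; with flow cell as a term it was -0.17, also with 0 calls.

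In the ovary several of the genes were lower at day 10. Of 45 tested, 0 rose and 6 fell (13.3%), where 3.2% of all genes tested rose and 3.06% fell. The median log2 change was -0.16, beside -0.02 over all genes tested, 29 of 45 were below 0, and 17 of 45 had an unadjusted p below 0.05, beside 2122 of the 9150 genes tested. Other tissue lists moved in the same ovaries. Of the 77 ovary-specific genes 5 fell and 0 rose (median -0.24, with 14 above 0), and of the 29 genes shared by fat body and ovary 3 fell and 0 rose (median -0.20). Of the 230 fat-body-specific genes tested, 31 rose and 1 fell (median 0.52). The part of tissue makeup in the fall of the 6 genes was not tested. Of the 6 genes, 3 were brain-led and 3 ovary-led, and in the brain all 6 were not called. The 6, of which all but the first and the fourth are named after their values were seen, were HSALG009128.2, HSALG001702.1, HSALG010964.1, HSALG028988.1, HSALG006614.2 and HSALG026722.1, with log2 changes of -1.34, -0.92, -0.66, -0.54, -0.49 and -0.40.

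HSALG009128.2 had 22.8, 22.2, 13.9, 11.7 and 15.4 CPM in the day 3 worker ovaries and 6.91, 10.2, 12.2, 16.2 and 20.0 CPM in the gamergate ones. At day 10 it had 2.91, 1.56, 5.60, 6.87 and 8.53 CPM in workers and 7.91, 3.84, 7.30, 13.2 and 5.38 CPM in gamergates. The day 10 libraries were mostly lower, and the days overlapped (SE of the change 0.30, edgeR adjusted p = 0.0111). HSALG010964.1, which the rule found in 3 of 5 repeats that each left out 1 day 0 replicate number, had the smallest adjusted p of the 45 (0.00213, SE 0.12). Its day 3 ovaries held 39.7 to 59.97 CPM (median 53.5) and its day 10 ovaries 19.7 to 45.5 CPM (median 33.6), and 0 of the 6 genes had days without overlap, beside 0.0765% of all genes tested.

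The castes were also fitted alone. In workers HSALG001702.1, HSALG009128.2, HSALG006614.2 and HSALG010964.1 fell and 3 other genes rose (HSALG009038.2, HSALG010586.2 and HSALG021444.1, by 0.61, 0.52 and 0.69), with a median of 0.02 over the 45. In gamergates 4 fell, of which HSALG028988.1 was among the 6, with a median of -0.37 over the 45. HSALG028988.1 changed by -1.13 in gamergates and by 0.04 in workers. HSALG026722.1 was called in neither caste alone, at -0.51 in gamergates and -0.29 in workers. No share or median over all genes is set beside these single-caste values, so they cannot be called particular to the list. The rule limited the day 10 caste ratio in these same ovaries, and HSALG028988.1 was the gene nearest that limit. The 2 caste medians are therefore a description only, and the difference between the castes in this change was not tested. Day 3 and day 10 libraries were on different flow cells. With flow cell as a term, which only the day 0 libraries tie to the days, 0 of the 45 genes and 0 of all genes tested were called; the median change of the 6 was then -0.51 instead of -0.60, and their median SE 0.28 instead of 0.13. The 2 largest falls shrank, from -1.34 to -0.39 for HSALG009128.2 and from -0.92 to -0.00459 for HSALG001702.1, while the other 4 lay between -0.32 and -0.70.

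**Figure D5:**
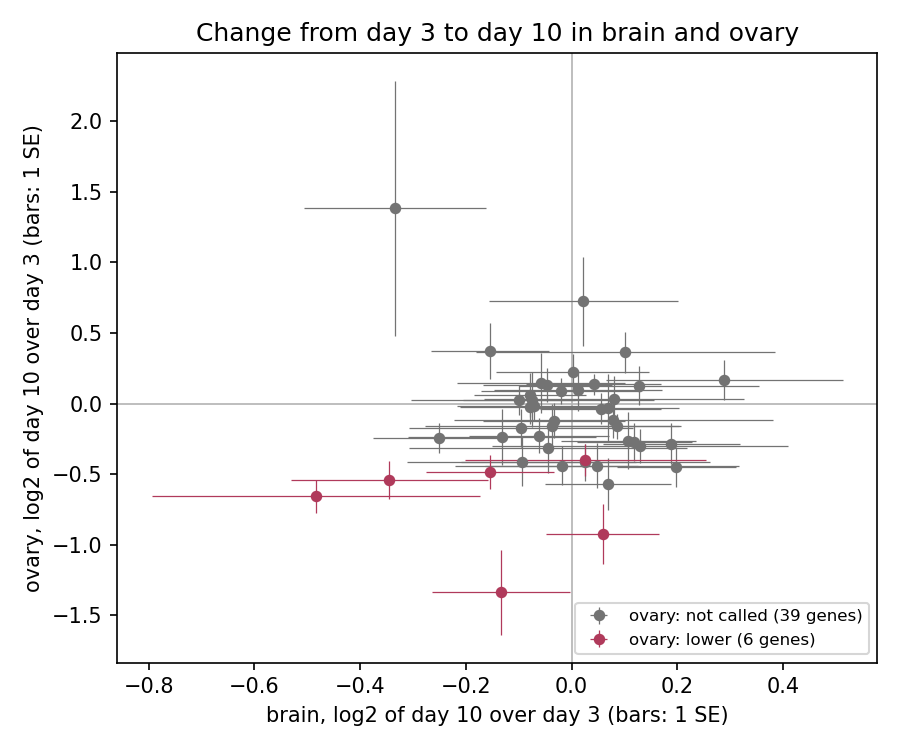
Log2 change from day 3 to day 10 in brain (x axis) and ovary (y axis) for the 45 genes tested in both, castes averaged, bars 1 SE; the 6 genes called lower in the ovary are coloured. Brain values stay between -0.48 and 0.29, while ovary values run from -1.34 to 1.38.

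Whether the change differed between the 2 tissues was tested in one fit of the 60 libraries of day 3 and day 10. Of the 46 genes, 1 had a higher change in the ovary than in the brain and 1 a lower one, where 0.455% of all genes tested were higher and 0.273% lower. HSALG009128.2 changed by 1.27 less in the ovary (log2 -1.27, SE 0.29, edgeR adjusted p = 0.0165); its brains went from a median of 88.8 to 75.6 CPM. HSALG027921.1 changed by 1.65 more in the ovary (SE 0.38, edgeR adjusted p = 0.0165), where its median went from 1.87 to 4.31 CPM on 2 to 6 reads per day 3 library and 0 to 17 reads per day 10 library, and its brains went from a median of 300.5 to 239 CPM. Both calls were lost in gamergates alone and when every library numbered 1, 2 or 3 was left out, and that of HSALG027921.1 also in workers alone.

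In the fat body 15 genes were tested for the change from day 3 to day 10. Of these edgeR called 0, where 2.3% of all genes tested rose and 2.24% fell. At an unadjusted p below 0.05 there were 3 of 15, beside 1505 of the 7941 genes tested. The median log2 change was 0.14, beside -0.01 over all genes tested, and 12 of 15 were above 0. With flow cell as a term the median turned to -0.34, with 0 calls. HSALG012703.2 was nearest the threshold. Its worker fat bodies held 34.3, 40.9, 70.1, 41.8 and 39.5 CPM at day 3 and 57.3, 80.5, 89.9, 82.8 and 38.1 CPM at day 10. Its gamergate fat bodies held 24.8, 76.7, 29.3, 31.7 and 33.6 CPM at day 3 and 101, 50.5, 83.0, 75.1 and 46.9 CPM at day 10. Most day 10 libraries were above most day 3 libraries, with overlap, and the log2 change was 0.73 (SE 0.22, edgeR adjusted p = 0.0514). DESeq2 called it, at an adjusted p of 0.0303, and edgeR called it when any 1 of 4 libraries was left out: day 3 gamergate number 2, day 3 worker number 3, day 10 gamergate number 5 or day 10 worker number 5, with changes of 0.93, 0.84, 0.79 and 0.80.

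The spread between replicates of the 46 genes was near that of other genes in brain and ovary. The median SD of log2(CPM + 1) between the day 3 libraries of a group was 0.264 for the 46 genes in the brain, beside 0.320 over all genes tested there, and 0.347 for the 45 genes tested in the ovary, beside 0.332. For the 15 genes tested in the fat body it was 0.956, beside 0.415, at the low read numbers given above.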

How the data were processed

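The authors deposited raw read counts per gene model, whole numbers without normalization, for 75 libraries. Per the submitters' processing notes, Trimmomatic, STAR 2.5.3a and HTSeq were used. The sources used here name no genome build or annotation and do not say whether counting used strand, so overlapping, antisense and near-identical genes cannot be told apart. HTSeq's rows for unassigned reads stayed out of library sizes; reads outside genes made up 20.7% to 67.7%. Of 20659 identifiers, 0 matched the RefSeq table, so marker lists by name could not be applied. The genes, lists and tests were chosen with earlier results of these data known. Fits used edgeR 4.0.16 in R 4.3.3 (TMM, filterByExpr with minimum count 10 and total 15, robust quasi-likelihood test), 1 coefficient per group, tested on simulated data. SE is the log2 difference over the square root of its F statistic. Genes were named by a fixed rule: the 3 with the second tissue farthest above the fat body, those nearest each limit, those with the most and least even split, the one with most reads, at most 2 per direction and comparison without overlap, and every gene where 5 or fewer were called. Alternatives were other scaling, DESeq2 1.42.0, no filter, blocks, lanes, single castes and leaving out libraries.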

Additional observations from a re-analysis of the deposited data

Results flagged for a closer look

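In 23 of 164 groups of 5 libraries checked for 14 named genes, the highest or lowest library stood apart from the other 4, by a gap above the 95% limit for 5 values (0.71 of the range). Chance would flag about 1 in 20 such groups if the values were normally distributed. The 164 groups share libraries, and several genes were named for extreme values, so the 23 cannot be set against that rate. The same check marked the share of reads taken by the 46 genes in the day 10 gamergate brains, where number 5 had 0.539% and the other 4 had 0.925% to 0.975%.

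The day 10 gamergate brain and ovary numbered 5 accounted for 9 of the 23. In the brain HSALG000626.2 had 254 CPM (others 639.8 to 719.6), HSALG012703.2 had 178 CPM, HSALG027921.1 had 91.1 CPM, HSALG000381.2 had 53.6 CPM and HSALG009128.2 had 34.4 CPM, each the lowest. In the ovary HSALG012241.2 had 170.2 CPM (others 315 to 336), HSALG000626.2 had 62.6 CPM, HSALG009635.2 had 113 CPM and HSALG005957.1 had 65.0 CPM, again the lowest. That brain library had 9.49% of its reads in brain-specific genes (other libraries of the group 14.6% to 16.0%) and 7.10% in fat-body-specific genes (4.25% to 5.35%). That ovary library had 42.6% of its reads outside genes, against 29.7% to 34.5%. The part of either value in these levels was not tested.

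The day 0 brain numbered 5 was the lowest for HSALG012110.2 (137 CPM), HSALG029357.1 (12.6 CPM) and HSALG012703.2 (263 CPM), and the highest for HSALG000626.2 (747 CPM). In day 0 ovary number 2, HSALG003019.2 (144 CPM) and HSALG009128.2 (49.3 CPM) were highest. Day 0 fat body number 3 was highest for HSALG012110.2 (32.7 CPM), and number 1 was lowest for HSALG012241.2 (14.7 CPM).

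At day 3, HSALG012703.2 was high in gamergate fat body number 2 (76.7 CPM) and in worker fat body number 3 (70.1 CPM), HSALG009635.2 was low in worker ovary number 5 (127 CPM), and HSALG002567.1 was low in gamergate ovary number 1 (139 CPM). Among the day 10 worker brains, HSALG009635.2 was high in number 3 (40.1 CPM) and HSALG002567.1 in number 4 (69.3 CPM).

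For 2 genes the change from day 3 to day 10 differed between ovary and brain by the test of that difference, by 1.65 for HSALG027921.1 and by -1.27 for HSALG009128.2 on the log2 scale.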

How the results depend on the processing

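The counts of genes called in the 2 day 3 comparisons of the brain, and the 0 calls between castes, stayed within 1.5 times of the reported count under every alternative run: other scaling, DESeq2, no filter on low counts, the replicate block, single castes, lane terms and single libraries left out. For the ovary over the fat body at day 3, the 1 lower gene became 0 with total-count scaling and in gamergates alone, and 0 to 1 without each library. For the fall in the ovary from day 3 to day 10, the 6 genes became 12 with total-count scaling, 10 with DESeq2, 0 with flow cell as a term, and 5 to 11 without each library; 10 or 11 were called without day 10 gamergate number 5, day 10 worker number 5, day 3 gamergate number 1 or day 3 worker number 4, the 6 among them each time. In workers alone 3 rose instead of 0. For other scaling, DESeq2, the replicate block, single castes and left-out libraries, the number of all genes called is not given. A larger or smaller count there is not by itself a result about the list. The single fat body gene near the threshold was called (1 instead of 0) with DESeq2 and in 4 of 20 leave-outs, a range of 0 to 1. For the difference between ovary and brain change, the 1 higher gene became 0 in gamergates alone and in workers alone, and 0 to 1 without each replicate number. The 1 lower gene became 2 with DESeq2, 2 with the replicate block, 0 in gamergates alone, and 0 to 2 without each replicate number. The causes were not tested. The median log2 difference from the fat body at day 3 was 5.86 for the brain and 5.26 for the ovary with total-count scaling.

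The labels do not say whether equal replicate numbers share ants, and no block was used in the reported fits, since not every pair's correlation exceeded 0.1. The deviations from the group means at day 3 in brain and ovary correlated with a median of 0.151 for equal numbers, above 0.1 in 6 of 10 pairs, and of -0.0146 for unequal ones; between the days in the brain the medians were 0.199 and -0.0272. At day 3, 7 of 10 brains correlated best with the ovary of their own number, a hint from the data and not from the design. With the replicate block, 46 genes were again higher in brain than fat body and 44 in ovary than fat body. In that fit 24 were higher and 15 lower in brain than ovary, and 6 fell in the ovary. No share of all genes is set beside these counts, so they are not by themselves a result about the list.

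The list itself had 43 genes in common with the one found with DESeq2 size factors, and 42 to 45 with those found without each day 0 replicate number; 38 were found in all 5 of these. HSALG012241.2 was found in 2 of the 5, HSALG010964.1 and HSALG009981.2 in 3, and HSALG003019.2, HSALG006119.2, HSALG005649.2, HSALG001041.2 and HSALG007678.2 in 4.

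Depth limits the fat body most: 31 of the 46 genes had too few reads to be tested there between castes or days, and 1, HSALG003019.2, in the ovary. Counting error is part of every low value given.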

Other observations

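The ovary pattern of HSALG003019.2 and HSALG027921.1 was looked for in all gene models after their values had been seen. In 10 genes at least 1 day 0 ovary library held 30 CPM or more and every later ovary library 10 CPM or less. In 6 of the 10, ovary number 2 was highest and numbers 1 and 2 were both above numbers 3 and 5. Beside HSALG003019.2 and HSALG027921.1 these were HSALG006937.2, HSALG008327.2, HSALG010295.2 and HSALG027922.1. HSALG006937.2 had 134, 159, 0.631, 14.0 and 0 CPM in the 5 day 0 ovaries, and a day 0 brain mean of 8.15 CPM. HSALG010295.2 had 43.2, 126, 0.315, 5.03 and 1.97 CPM, and a brain mean of 1.37 CPM. HSALG027922.1, whose identifier follows that of HSALG027921.1, had 25.4, 52.0, 0, 8.67 and 0 CPM, and a brain mean of 32.1 CPM. In all 6, number 2 was highest and number 1 second; the order of numbers 3, 4 and 5 and the brain level differed between them, and no test was made.

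Lists made by the same rule for the other pairs of tissues held 62 genes for brain and fat body and 29 for fat body and ovary. At day 3 the tissue lowest at day 0 was below both others in 60 of 62 genes (96.8%) and in 29 of 29, beside 44 of 46 for brain and ovary. Over all genes tested, the ovary was below both others in 18.8%, the brain in 20.1% and the fat body in 22.1%.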
